A study of Mus musculus with 12 samples.

Results

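The glycolysis and hypoxia-response genes are a set of 39 genes taken by symbol, with no threshold on their values, from the 56748 genes listed in the count matrix. They fall into 4 glucose and lactate transporters, 18 glycolytic enzymes, 6 regulatory kinases, 2 HIF alpha subunits and 9 HIF targets outside glycolysis. All 39 were found, and all 39 passed the filter on low counts that 15033 genes passed. The matrix came from bulk RNA sequencing of bone marrow-derived macrophages (BMDM) of C57BL/6J mice, grown with M-CSF at 20 ng/mL and then given IL4 (10 ng/mL, 48 hours), which polarizes them to be M2-like.

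Each of 4 conditions had 3 libraries and lasted 72 hours. The control was medium alone (untreated). The eGFP sn condition was diluted supernatant of YUMM5.2 eGFP cells, a mouse melanoma line with a lentiviral tetracycline-responsive eGFP gene, collected after 72 hours of Doxycycline (Dox) at 1 µg/mL. The Ifnb1eGFP sn condition was supernatant of Dox-treated YUMM5.2 cells whose vector carried Ifnb1 and eGFP, diluted to 1500 pg/mL of IFNβ, with an equal dilution of the eGFP supernatant. The rIFNβ condition was recombinant IFNβ at the same 1500 pg/mL, without supernatant. All 4 conditions therefore shared the M-CSF and IL4 steps, and no library of BMDM without IL4 was analysed here. The series describes 3 biological replicates per condition. The wild-type mice of the study were female and were bought when 10 to 12 weeks old, and the sources used here do not say whether the bone marrow came from them. The comparisons asked how the set responded to recombinant IFNβ, to supernatant with tumor-derived IFNβ against equally diluted eGFP supernatant, and to the eGFP supernatant itself. Whether the supernatants also differed in other contents was not tested.

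Glycolysis splits glucose into pyruvate, which lactate dehydrogenase can turn into lactate for export or which the mitochondria can burn. Hypoxia-inducible factors (HIF) pair an oxygen-labile alpha subunit with a stable partner, and they switch on most of these enzymes together with genes of angiogenesis, mitophagy and collagen modification. In macrophages, inflammatory activation is known to raise glycolysis and HIF1α, whereas the IL4-polarized state is known for its use of fatty acid oxidation. Because HIF alpha subunits are controlled largely at the protein level, RNA does not measure their activity.

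Library totals ran from 31526034 to 45348457 counts. Levels are given as CPM, a gene's counts per 1000000 of its library's total over the tested genes, scaled by a normalization factor. A member was called at a Benjamini-Hochberg adjusted p of at most 0.05 in edgeR's quasi-likelihood test over all 15033 genes. Macrophage markers summed to between 5315 and 6381 CPM in every library, although Itgam fell (log2 fold changes -2.17 and -1.99 with rIFNβ and Ifnb1eGFP sn) and Fcgr1, an interferon-inducible Fc receptor, rose (4.46 and 3.85). Of the IL4 markers, Mrc1, Chil3 and Retnla were present in every library (lowest values 609, 63.2 and 45.4 CPM), but Arg1, which IL4 commonly induces, was at or below 0.877 CPM in all 12. Chil3 rose with rIFNβ and with Ifnb1eGFP sn (log2 fold changes 0.67 and 0.77), and the other 3 IL4 markers were called in neither. All 6 melanoma markers were under 1 CPM in every library. Neutrophil markers, of which S100a8 gave most without IFNβ, summed to 4.28 to 5.72 CPM without IFNβ and 0.208 to 0.985 CPM with it, and dendritic cell markers to 1.54 to 2.03 against 0.348 to 0.697 CPM. The 5 fibroblast and stroma markers, all detected, summed to 30.5 to 84 CPM without IFNβ and 50.4 to 79.5 CPM with it. Within them Dcn rose (log2 fold changes 1.35 and 1.80), Pdgfra rose (1.17 and 1.67), Col1a1 fell (-1.08 and -1.03), Col3a1 fell with rIFNβ (-0.95) and was not called with Ifnb1eGFP sn (-0.45), and Col1a2 was called in neither (-0.23 and -0.08). The lymphocyte markers summed to at most 0.247 CPM. The part of these markers in the results below was not tested. In bulk RNA, fewer cells of a type and less RNA per cell cannot be told apart.

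The proximal promoters of 4 members are shown because these members span the responses below: Ankrd37 and Pgam1 fell, Adm rose and Hif1a was not called. Each run is the 250 bases before the start site of the RefSeq transcript (GRCm38.p6), 5′ to 3′ in the direction of the gene. Capitals mark the core of a HIF site, searched as ACGTG or GCGTG on both strands, so that the reverse forms CACGT and CACGC are also in capitals. The palindrome CACGTG counts on both strands and is also the E-box that other factors read.
Ankrd37, chr8:45999851-46000100 (- strand): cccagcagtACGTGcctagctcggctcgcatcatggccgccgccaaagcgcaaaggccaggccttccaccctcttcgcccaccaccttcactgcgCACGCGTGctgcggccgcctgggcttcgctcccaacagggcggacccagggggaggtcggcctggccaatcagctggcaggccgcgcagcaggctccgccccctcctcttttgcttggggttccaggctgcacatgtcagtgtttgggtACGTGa
Adm, chr7:110627407-110627656 (+ strand): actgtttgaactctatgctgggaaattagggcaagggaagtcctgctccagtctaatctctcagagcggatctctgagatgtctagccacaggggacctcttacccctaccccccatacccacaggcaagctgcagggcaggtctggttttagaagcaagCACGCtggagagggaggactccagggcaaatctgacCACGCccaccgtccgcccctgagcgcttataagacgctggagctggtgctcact
Hif1a, chr12:73907617-73907866 (+ strand): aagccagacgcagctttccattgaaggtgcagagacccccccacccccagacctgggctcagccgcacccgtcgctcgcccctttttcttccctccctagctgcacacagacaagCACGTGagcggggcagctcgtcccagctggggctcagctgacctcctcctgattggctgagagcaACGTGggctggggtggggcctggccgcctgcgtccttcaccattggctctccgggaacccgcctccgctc
Pgam1, chr19:41911621-41911870 (+ strand): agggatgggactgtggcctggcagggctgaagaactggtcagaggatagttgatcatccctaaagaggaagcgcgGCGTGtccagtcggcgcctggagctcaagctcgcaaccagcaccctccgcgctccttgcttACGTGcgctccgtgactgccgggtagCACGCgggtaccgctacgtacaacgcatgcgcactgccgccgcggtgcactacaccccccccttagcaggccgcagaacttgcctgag

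Ankrd37 held 4 cores in these bases, the nearest beginning 6 bases before the start site. Hif1a and Pgam1 each held 3, counting CACGTG in Hif1a on both strands, and Adm held 2, at 90 and 54 bases before the start. RefSeq promoter windows of 300 bases (250 before to 50 after the start) matched 36 of the 39 members, in 51 windows. A core was present in 41 of these 51 windows (80.4%), against 43.8% of all 32851 windows, and at least 2 cores in 58.8% against 20.6%. The median GC content was 62% in the member windows and 52.7% in all windows, and its part in the difference was not tested. Some members had several windows, and some of these overlapped, as for Eno1 and Aldoa. The set was also chosen to hold hypoxia-response genes, so these shares describe it and are not a test. Among enzymes 22 of 29 windows (75.9%) held a core, and among the non-glycolytic HIF targets 8 of 9 (88.9%). The core of the interferon-stimulated response element, GAAA, any 2 bases, GAAA, was found in 1 of the 51 windows (1.96%), at 1 of the start sites of Vegfa, and in 3.44% of all windows. A match describes the letters only, and each of the 4 promoters shown, of members that fell, rose or were not called, held HIF cores.

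IFNβ lowered most of the set, from either source. With rIFNβ 29 members fell, 4 rose and 6 were not called, where 55.3% of all genes tested were called (24.6% lower and 30.7% higher). With Ifnb1eGFP sn against eGFP sn 29 fell, 6 rose and 4 were not called, where 55.1% of all genes were called (25% lower and 30.1% higher). The median log2 fold change over the members was -0.68 and -0.66, beside 0.04 and 0.03 over all genes. The libraries of the compared conditions did not overlap for 32 and 33 of the 39 members, against 66.1% and 59% of all genes. At the thresholds the study used (absolute log2 fold change of at least 2, adjusted p of at most 0.01) 5 and 6 members passed, beside 5.77% and 5.39% of all genes. In both comparisons 28 members fell and 4 rose (Pdk4, Adm, P4ha1 and P4ha2), 4 were called in 1 comparison only (Slc16a1, Hk1, Pfkfb3 and Egln3), and Hk2, Pdk2 and Hif1a were called in neither. No member was called in opposite directions. These comparisons share no libraries, but both came from 1 model with a shared estimate of the spread over all 12 libraries.

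**Figure D1:**
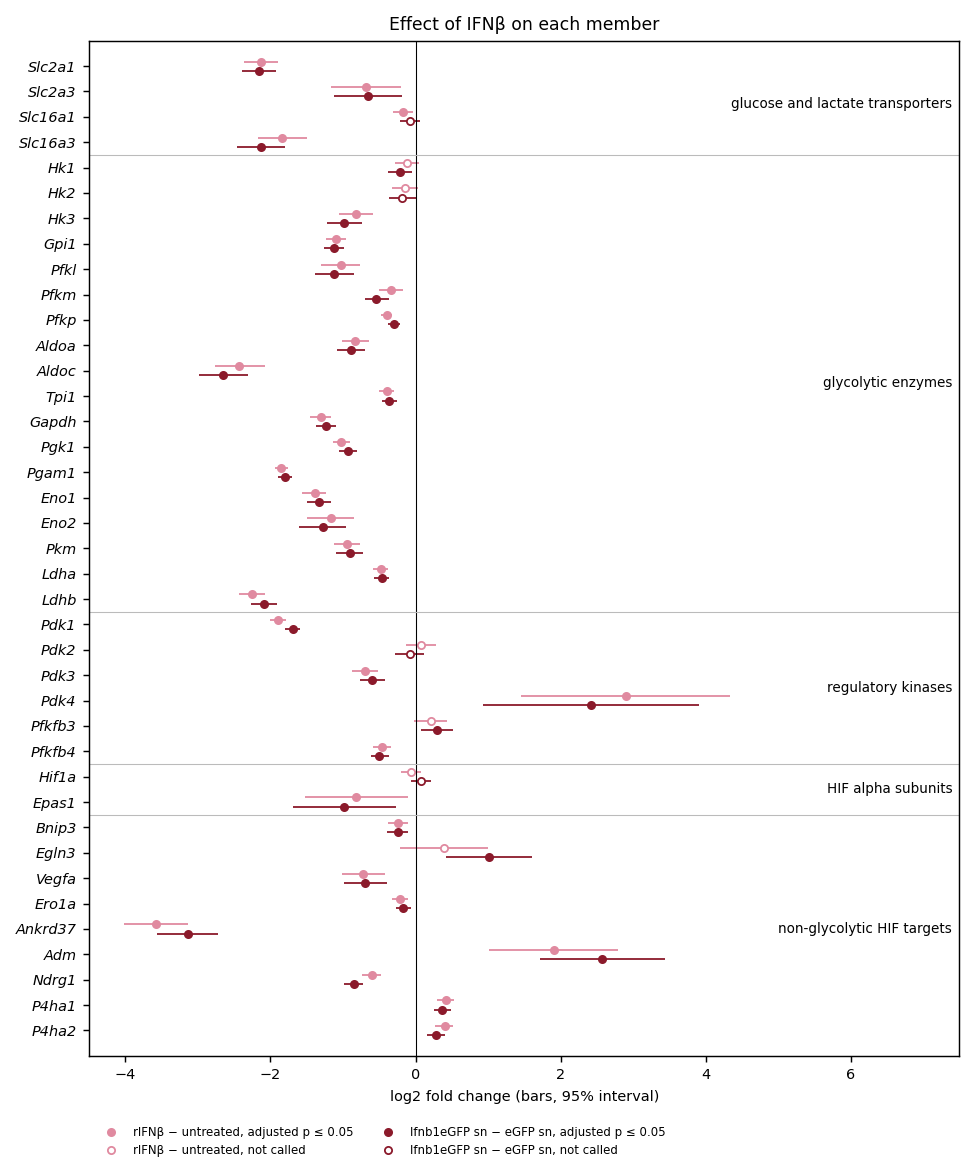
Log2 fold change of each of the 39 members (x axis) with its 95% interval, for rIFNβ against untreated and Ifnb1eGFP sn against eGFP sn, grouped by role. Filled points passed an adjusted p of 0.05 and open points did not. The enzymes lie below 0, from -0.12 (Hk1) to -2.43 (Aldoc) with rIFNβ, while the non-glycolytic HIF targets lie on both sides, from -3.58 (Ankrd37) to 1.91 (Adm).

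Transporters set the entry of glucose and the exit of lactate. Slc2a1 encodes GLUT1, the main glucose transporter of activated macrophages, and lies at chr4:118965908-118996365 (GRCm39). It measured 126, 120 and 127 CPM in untreated BMDM, 128, 130 and 105 with eGFP sn, 29, 28 and 28.5 with rIFNβ, and 23, 31.1 and 27.2 with Ifnb1eGFP sn. Every IFNβ library was thus far below every library without IFNβ, by 4.38-fold (log2 fold change -2.13, SE 0.10, adjusted p = 1.54e-08) and 4.47-fold (log2 fold change -2.16, SE 0.10, adjusted p = 1.65e-08). Slc16a3 encodes the lactate exporter MCT4. It measured 21, 18.7 and 22.6 CPM untreated, 26.7, 26.7 and 24.6 with eGFP sn, 5.61, 6.05 and 5.76 with rIFNβ, and 4.3, 7.45 and 6.06 with Ifnb1eGFP sn. The groups again did not overlap, and it fell 3.57-fold (log2 fold change -1.84, SE 0.15, adjusted p = 1.1e-06) and 4.37-fold (log2 fold change -2.13, SE 0.15, adjusted p = 3.43e-07).

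Slc2a3, the high-affinity glucose transporter GLUT3, was scarce. It measured 2.32, 3.45 and 2.58 CPM untreated, 2.96, 3.17 and 2.91 with eGFP sn, 1.54, 2.32 and 1.34 with rIFNβ, and 1.72, 2.28 and 1.72 with Ifnb1eGFP sn, which is 52 to 130 counts a library. Untreated replicate 1 and rIFNβ replicate 2 were nearly level, both at 2.32 CPM. It fell by 0.68 (SE 0.22, adjusted p = 0.0209) and by 0.66 (SE 0.21, adjusted p = 0.0213) on the log2 scale. The rIFNβ call was lost without untreated replicate 2 (adjusted p = 0.0983), rIFNβ replicate 1 (adjusted p = 0.0725) or rIFNβ replicate 3 (adjusted p = 0.0842), and the supernatant call without eGFP sn replicate 2 (adjusted p = 0.0615) or Ifnb1eGFP sn replicate 3 (adjusted p = 0.0759). Slc16a1, the lactate and pyruvate carrier MCT1, stayed between 15.9 and 19.2 CPM in all 12 libraries. It was called lower with rIFNβ (log2 fold change -0.17, SE 0.06, adjusted p = 0.0385), a call lost without any 1 of the 6 compared libraries (adjusted p from 0.0642 without untreated replicate 3 to 0.121 without rIFNβ replicate 1), with library totals (adjusted p = 0.0673) and with no filter on low counts (adjusted p = 0.148). It was not called with Ifnb1eGFP sn (-0.07, 95% interval -0.21 to 0.06).

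**Figure D2:**
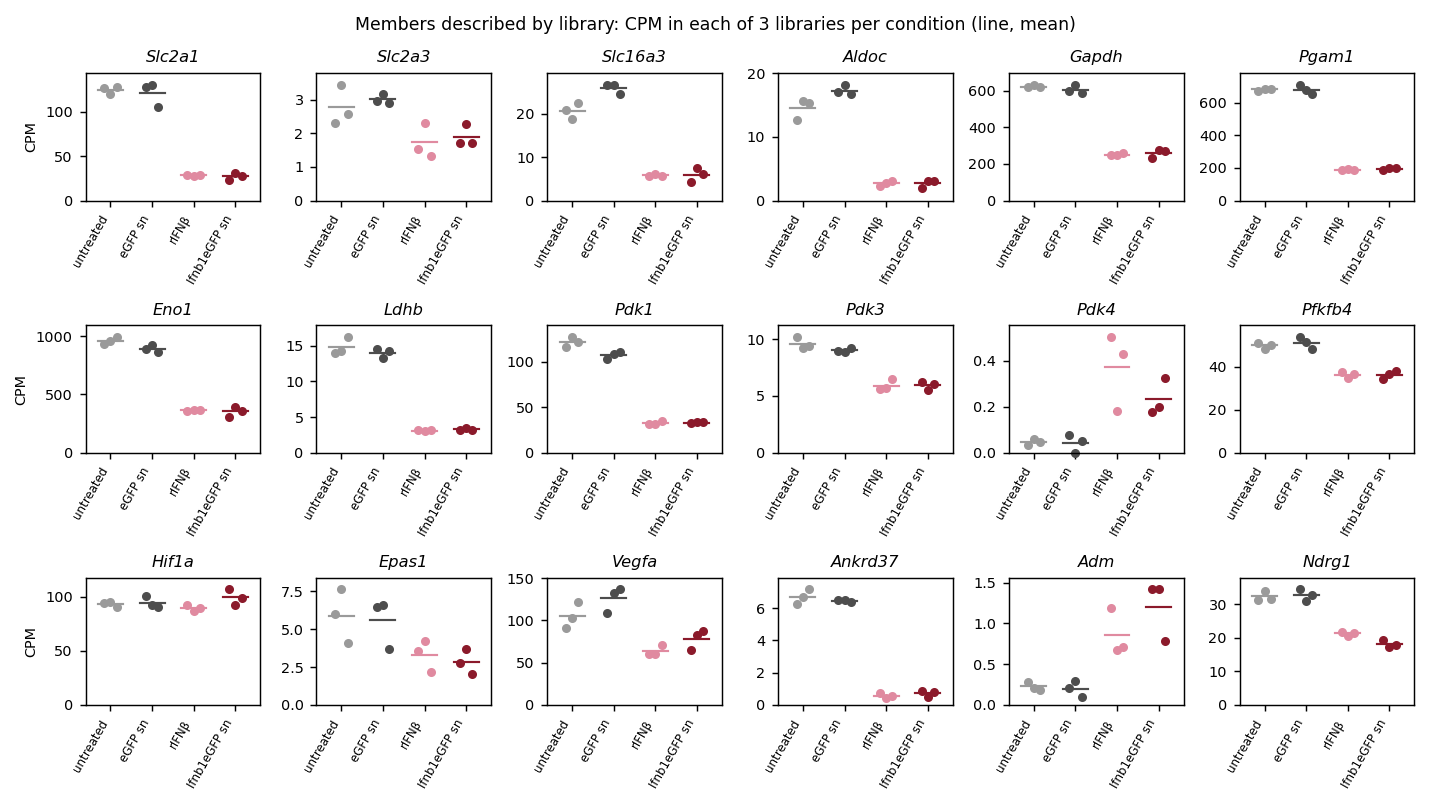
CPM (y axis, linear and starting at 0) of the 18 members described by library, with a point for each of 3 libraries per condition and a line at their mean. Slc2a1 sits between 105 and 130 CPM without IFNβ and between 23 and 31.1 with it, Hif1a between 86.4 and 107 in all conditions, and Adm and Pdk4 are higher with IFNβ.

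The 18 glycolytic enzymes fell almost as a block. With rIFNβ 16 fell (88.9%) and none rose, where 24.6% of all genes fell and 30.7% rose. With Ifnb1eGFP sn 17 fell (94.4%) and none rose, where 25% of all genes fell and 30.1% rose. The median log2 fold changes of the enzymes were -0.99 and -0.95. Their summed level was 9858 ± 198 CPM untreated, 9462 ± 361 with eGFP sn, 5152 ± 29.1 with rIFNβ and 4976 ± 494 with Ifnb1eGFP sn (SD, n = 3). Their share of the scaled library total thus went from between 0.91% and 1.01% to between 0.445% and 0.543%. Per kilobase of transcript the most abundant enzyme of untreated BMDM was Pkm, the pyruvate kinase (1132 CPM per kilobase), followed by Aldoa (868) and Ldha (543).

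Each step of the chain, from hexokinase to lactate dehydrogenase, was represented by at least 1 enzyme that fell in both comparisons. Among the upper steps, Gpi1, which makes fructose 6-phosphate, had log2 fold changes of -1.09 and -1.13 (SE 0.06 in both). Aldoa, the main aldolase, had -0.83 and -0.89 (SE 0.09), and Tpi1, which interconverts the triose phosphates, had smaller values of -0.39 and -0.36 (SE 0.05). Among the lower steps, Pgk1, the first ATP-yielding step, had -1.03 and -0.93 (SE 0.05), Pkm had -0.95 and -0.91 (SE 0.08), and Eno2 had -1.17 (SE 0.15) and -1.28 (SE 0.14). Ldha, which turns pyruvate into lactate, fell less, by 0.48 and 0.46 on the log2 scale (SE 0.05). Adjusted p values of these 7 enzymes lay between 2.48e-08 and 8.54e-05.

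Pgam1, phosphoglycerate mutase (chr19:41900341-41907104, GRCm39), combined a high level with a large fall. It measured 675, 687 and 687 CPM untreated, 711, 682 and 652 with eGFP sn, 189, 192 and 187 with rIFNβ, and 190, 199 and 198 with Ifnb1eGFP sn. The spread within conditions was small beside the gap, and the fall was 3.61-fold (log2 fold change -1.85, SE 0.04, adjusted p = 1.17e-10) and 3.48-fold (log2 fold change -1.80, SE 0.04, adjusted p = 1.33e-10). The annotation names 2 further copies of Pgam1 that can share its reads, which summed to 25.8 CPM untreated, 23.9 with eGFP sn, 9.98 with rIFNβ and 7.68 with Ifnb1eGFP sn. Eno1, the main enolase, measured 932, 955 and 993 CPM untreated, 888, 928 and 861 with eGFP sn, 362, 365 and 369 with rIFNβ, and 308, 396 and 362 with Ifnb1eGFP sn. It fell 2.63-fold (log2 fold change -1.39, SE 0.08, adjusted p = 3.71e-08) and 2.51-fold (log2 fold change -1.33, SE 0.08, adjusted p = 6.21e-08).

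Gapdh, which oxidizes glyceraldehyde 3-phosphate, is the reference gene of the study's quantitative PCR. That PCR used macrophages isolated from mouse brain tumors, and whether Gapdh changed in them was not tested here. In the cultured BMDM measured here, Gapdh was not constant. It measured 620, 629 and 619 CPM untreated, 596, 632 and 587 with eGFP sn, 246, 250 and 258 with rIFNβ, and 231, 274 and 268 with Ifnb1eGFP sn. The highest IFNβ library had 274 CPM and the lowest other library 587, and the conditions differed by 2.48-fold (log2 fold change -1.31, SE 0.06, adjusted p = 1.18e-08) and 2.35-fold (log2 fold change -1.23, SE 0.06, adjusted p = 2.27e-08).

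The largest falls among the enzymes were in minor isozymes. Aldoc, the brain-type aldolase, measured 12.7, 15.6 and 15.3 CPM untreated, 17, 18.2 and 16.7 with eGFP sn, 2.25, 2.74 and 3.06 with rIFNβ, and 2.02, 3.13 and 3.06 with Ifnb1eGFP sn. It fell 5.38-fold (log2 fold change -2.43, SE 0.16, adjusted p = 1.41e-07) and 6.29-fold (log2 fold change -2.65, SE 0.15, adjusted p = 7.12e-08). Ldhb, the heart-type lactate dehydrogenase subunit, measured 13.9, 14.3 and 16.2 CPM untreated, 14.5, 13.3 and 14.2 with eGFP sn, 3.14, 3.06 and 3.13 with rIFNβ, and 3.14, 3.53 and 3.19 with Ifnb1eGFP sn. It fell 4.75-fold (log2 fold change -2.25, SE 0.08, adjusted p = 1.58e-09) and 4.26-fold (log2 fold change -2.09, SE 0.08, adjusted p = 2.72e-09). In each, every IFNβ library lay below every library without IFNβ.

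Hexokinases, which trap glucose in the cell, did not move alike. Hk3, the most abundant per kilobase, fell by 0.82 and 0.98 on the log2 scale (SE 0.11, adjusted p = 5.65e-05 and 1.48e-05). Hk1 ranged from 91.9 to 127 CPM. It was not called with rIFNβ (-0.12, 95% interval -0.28 to 0.05), though it was without Ifnb1eGFP sn replicate 1 (adjusted p = 0.0157) or when the fit held the compared conditions alone (adjusted p = 0.015). With Ifnb1eGFP sn Hk1 was called lower (-0.21, SE 0.07, adjusted p = 0.0318), a call lost without eGFP sn replicate 1 (adjusted p = 0.0739), eGFP sn replicate 2 (adjusted p = 0.116) or Ifnb1eGFP sn replicate 3 (adjusted p = 0.0763), and in the fit of the compared conditions alone (adjusted p = 0.09). Hk2, the HIF-inducible hexokinase, ranged from 42.8 to 56.7 CPM and was called in neither comparison (-0.15, 95% interval -0.33 to 0.03, and -0.18, 95% interval -0.36 to 0.01). For Ifnb1eGFP sn, Hk2 was called lower by DESeq2 (adjusted p = 0.0463), with RLE factors (adjusted p = 0.0386), and without eGFP sn replicate 3 (adjusted p = 0.0336) or Ifnb1eGFP sn replicate 1 (adjusted p = 0.0469).

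Of the phosphofructokinases, which catalyse the committed step, the liver type Pfkl fell most, by 1.03 and 1.12 on the log2 scale (SE 0.12, adjusted p = 2.32e-05 and 1.21e-05). The platelet type Pfkp fell by 0.40 and 0.30 (SE 0.04, adjusted p = 2.73e-06 and 3.04e-05) and the muscle type Pfkm by 0.34 and 0.54 (SE 0.07, adjusted p = 0.00246 and 8.39e-05).

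The make-up of several isozyme families differed between the condition means, compared here as shares of CPM per kilobase of transcript. Hk3 made up 83.8% of hexokinase untreated and 83.6% with eGFP sn, against 76.2% with rIFNβ and 74.9% with Ifnb1eGFP sn. Pfkl made up 21.7% and 24.1% of phosphofructokinase without IFNβ and 15.2% and 15.4% with it. Aldoc went from 0.595% and 0.744% to 0.198% and 0.219% of aldolase, and Ldhb from 1.75% and 1.67% to 0.521% and 0.545% of lactate dehydrogenase. Eno1 was between 98.6% and 98.9% of enolase in every condition mean. These shares are given as a description, and no test was made on them.

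**Figure D3:**
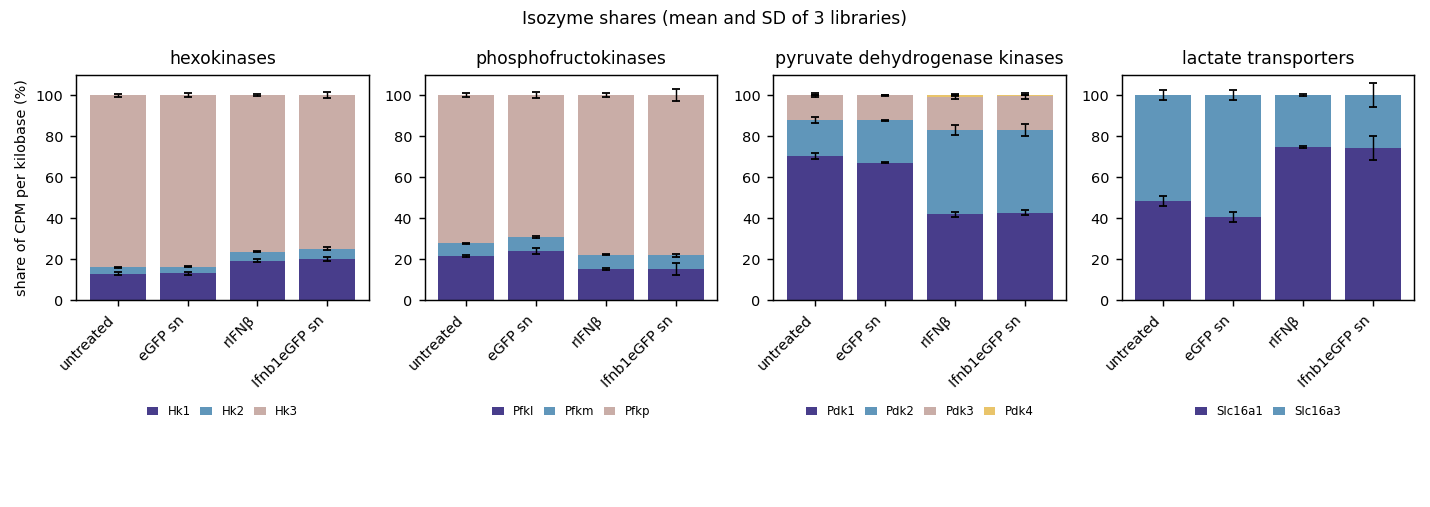
Share of CPM per kilobase (y axis, %) of each member within 4 families, as the mean of 3 libraries per condition with the SD. Pdk1 is 70.5% and 67.1% of the pyruvate dehydrogenase kinases without IFNβ and 41.9% and 42.8% with it, and Slc16a3 is 51.7% and 59.4% of the lactate transporters against 25.3% and 25.9%.

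The regulatory kinases went both ways. Pyruvate dehydrogenase kinases (PDK) hold back the entry of pyruvate into mitochondria. Pdk1, the HIF-inducible one (chr2:71703488-71734202, GRCm39), measured 116, 127 and 121 CPM untreated, 103, 108 and 110 with eGFP sn, 31.8, 31.6 and 34.3 with rIFNβ, and 32.4, 33.2 and 33.6 with Ifnb1eGFP sn. The conditions with and without IFNβ were far apart, 3.73-fold (log2 fold change -1.90, SE 0.05, adjusted p = 2.16e-10) and 3.24-fold (log2 fold change -1.69, SE 0.05, adjusted p = 4.76e-10). Pdk3 measured 10.2, 9.22 and 9.39 CPM untreated, 8.99, 8.92 and 9.21 with eGFP sn, 5.58, 5.71 and 6.47 with rIFNβ, and 6.27, 5.54 and 6.1 with Ifnb1eGFP sn. It fell without overlap, by 0.70 and 0.60 on the log2 scale (SE 0.08, adjusted p = 1.65e-05 and 5.53e-05). Pdk2, the widely expressed form, stayed between 12 and 14.8 CPM and was not called (0.07, 95% interval -0.13 to 0.28, and -0.08, 95% interval -0.28 to 0.12). Pdk2 made up 17.5% and 20.6% of PDK per kilobase without IFNβ and 41.1% and 40.2% with it.

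Pdk4, the form induced by fasting and fatty acids, rose from almost nothing. It had 1, 2 and 2 counts untreated, 3, 0 and 2 with eGFP sn, 17, 8 and 17 with rIFNβ, and 7, 8 and 15 with Ifnb1eGFP sn. Each IFNβ library was above each library without IFNβ, yet the highest reached only 0.504 CPM. The ratio of summed counts per library total was 7.76 (95% exact interval 3.07 to 25.1, for counting error only) with rIFNβ and 5.8 (2.23 to 19.1) with Ifnb1eGFP sn, with adjusted p = 0.00273 and 0.0101 in the model.

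The PFKFB enzymes make and break fructose 2,6-bisphosphate, the activator of phosphofructokinase. Pfkfb4 measured 51.1, 48.2 and 50 CPM untreated, 53.7, 51.6 and 48.1 with eGFP sn, 37.5, 34.6 and 36.6 with rIFNβ, and 34.1, 36.7 and 37.8 with Ifnb1eGFP sn. It fell by 0.46 and 0.50 on the log2 scale (SE 0.06, adjusted p = 3.01e-05 and 1.58e-05), without overlap. Pfkfb3, the form that favours synthesis, ranged from 80.4 to 122 CPM. It was not called with rIFNβ (0.21, 95% interval -0.02 to 0.44) and was called higher with Ifnb1eGFP sn (0.30, SE 0.10, adjusted p = 0.0313), a call lost without eGFP sn replicate 3 (adjusted p = 0.12), Ifnb1eGFP sn replicate 1 (adjusted p = 0.129) or Ifnb1eGFP sn replicate 2 (adjusted p = 0.0563).

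Of the HIF alpha subunits, 1 was not called and 1 was called lower. Hif1a (chr12:73948149-73996321, GRCm39) measured 94.2, 95.3 and 90.5 CPM untreated, 101, 92.5 and 90.1 with eGFP sn, 92.6, 86.4 and 89.2 with rIFNβ, and 107, 92.1 and 99 with Ifnb1eGFP sn. The conditions overlapped, and the log2 fold changes were -0.06 (95% interval -0.20 to 0.07) and 0.08 (95% interval -0.06 to 0.21), so a change past 0.21 in either direction lies outside both intervals. Epas1, which encodes HIF2α, measured 5.98, 7.64 and 4.09 CPM untreated, 6.49, 6.63 and 3.69 with eGFP sn, 3.56, 4.23 and 2.17 with rIFNβ, and 2.78, 3.7 and 2.06 with Ifnb1eGFP sn. Replicate 3 was the lowest of its condition in all 4 conditions, and the conditions overlapped. It was called lower by 0.82 (SE 0.32, adjusted p = 0.0487) and 0.98 (SE 0.32, adjusted p = 0.0232) on the log2 scale.

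The rIFNβ call of Epas1 was lost without untreated replicate 1 (adjusted p = 0.0947), untreated replicate 2 (adjusted p = 0.187), eGFP sn replicate 1 (adjusted p = 0.0586), eGFP sn replicate 2 (adjusted p = 0.0548), rIFNβ replicate 1 (adjusted p = 0.0857) or rIFNβ replicate 3 (adjusted p = 0.167). The Ifnb1eGFP sn call was lost without eGFP sn replicate 1 (adjusted p = 0.0754), eGFP sn replicate 2 (adjusted p = 0.0784) or Ifnb1eGFP sn replicate 3 (adjusted p = 0.0907).

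The 9 HIF targets outside glycolysis included both falls and rises. With rIFNβ 5 fell (55.6%), 3 rose (33.3%) and 1 was not called, with a median log2 fold change of -0.21, where 24.6% of all genes fell and 30.7% rose. With Ifnb1eGFP sn 5 fell (55.6%) and 4 rose (44.4%), with a median of -0.17, where 25% of all genes fell and 30.1% rose. The share that rose with rIFNβ was thus near that of all genes. Beside this stand the enzymes, with no rise and medians of -0.99 and -0.95. In mean log2 CPM relative to untreated, the 6 IFNβ libraries lay between -1.18 and -0.93 for the enzymes and between -0.35 and 0.02 for these targets. The difference between the roles is a description, since genes of a role are not replicates.

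**Figure D4:**
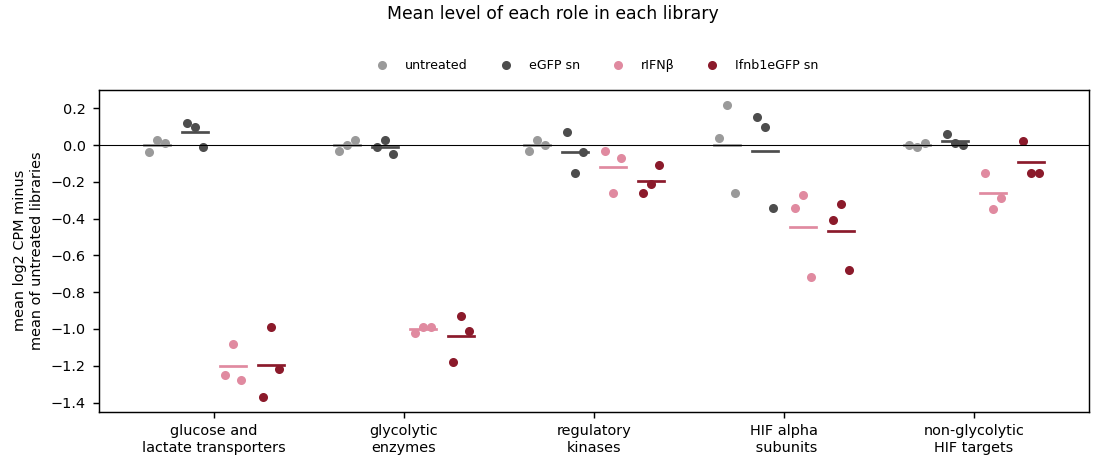
Mean log2 CPM of the members of each role minus the mean of the untreated libraries (y axis), with a point for each library and a line at the mean of 3. In the IFNβ conditions the transporters and enzymes lie between -1.37 and -0.93, and the non-glycolytic HIF targets between -0.35 and 0.02.

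Ankrd37, an ankyrin repeat protein and strong HIF target, had the largest fall of the set. It measured 6.23, 6.7 and 7.17 CPM untreated, 6.49, 6.51 and 6.35 with eGFP sn, 0.712, 0.45 and 0.531 with rIFNβ, and 0.885, 0.472 and 0.825 with Ifnb1eGFP sn, where the IFNβ libraries held 19 to 38 counts each. No library overlapped, and the fall was 12-fold (log2 fold change -3.58, SE 0.20, adjusted p = 4.45e-08) and 8.81-fold (log2 fold change -3.14, SE 0.19, adjusted p = 9.9e-08). Vegfa, the angiogenic growth factor, measured 90.9, 103 and 122 CPM untreated, 109, 133 and 137 with eGFP sn, 60.3, 60.5 and 71 with rIFNβ, and 64.5, 82.7 and 87 with Ifnb1eGFP sn. It fell 1.65-fold (log2 fold change -0.72, SE 0.14, adjusted p = 0.000893) and 1.61-fold (log2 fold change -0.69, SE 0.14, adjusted p = 0.0012), with no overlap within either comparison.

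Ndrg1, a stress-responsive gene, measured 31.2, 34 and 31.6 CPM untreated, 34.4, 31 and 32.7 with eGFP sn, 21.8, 20.6 and 21.4 with rIFNβ, and 19.4, 17.1 and 17.8 with Ifnb1eGFP sn. It fell by 0.60 and 0.85 on the log2 scale (SE 0.06, adjusted p = 6.92e-06 and 4.12e-07), also without overlap. Bnip3, a mitophagy receptor, fell by 0.24 in both comparisons (adjusted p = 0.0085 and 0.00716) within a range of 16.4 to 23.9 CPM. Ero1a, an oxidase of protein folding, fell by 0.21 and 0.17 (adjusted p = 0.00303 and 0.0118) within 72.6 to 89.1 CPM, and when the fit held the compared conditions alone the second call was lost (adjusted p = 0.0572).

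Adm, which encodes the vasodilator peptide adrenomedullin, went the other way. It measured 0.286, 0.205 and 0.189 CPM untreated, 0.202, 0.292 and 0.1 with eGFP sn, 1.19, 0.675 and 0.707 with rIFNβ, and 1.42, 1.42 and 0.782 with Ifnb1eGFP sn, or 4 to 12 counts without IFNβ and 28 to 57 with it. All 6 IFNβ libraries were above all 6 others, by 3.75-fold (log2 fold change 1.91, SE 0.40, adjusted p = 0.0018) and 5.96-fold (log2 fold change 2.57, SE 0.39, adjusted p = 0.000178). P4ha1 and P4ha2, the alpha subunits of collagen prolyl 4-hydroxylase, also rose. P4ha1 rose from 137 ± 2.69 to 184 ± 7.51 CPM with rIFNβ and from 153 ± 6.68 to 199 ± 11.3 CPM with Ifnb1eGFP sn (SD, n = 3; log2 fold changes 0.42 and 0.37, adjusted p = 3.39e-05 and 8.47e-05 in edgeR). P4ha2 had log2 fold changes of 0.40 and 0.28 (SE 0.06, adjusted p = 9.54e-05 and 0.00132). The stroma markers Dcn and Pdgfra rose in the same comparisons while Col1a1 fell, and their part in these rises was not tested.

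Egln3, the HIF prolyl hydroxylase PHD3 that marks HIF alpha for destruction, ranged from 0.463 to 1.95 CPM. It was called higher with Ifnb1eGFP sn (log2 fold change 1.01, SE 0.27, adjusted p = 0.008) and not with rIFNβ (0.39, 95% interval -0.21 to 1.00). The test of the difference between these effects gave 0.62 on the log2 scale (95% interval -0.23 to 1.47, adjusted p = 0.926), so the effects were not shown to differ.

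For Ifnb1eGFP sn against rIFNβ no member was called by edgeR, where 0.16% of all genes were called, and DESeq2 called none. In edgeR 6 of the 39 members had an unadjusted p under 0.05, a larger share than the 8.57% of all genes. The smallest adjusted p was that of Ndrg1 (log2 fold change -0.23, adjusted p = 0.34). The libraries did not overlap for 4 of the 39 members, against 12.8% of all genes. The 95% intervals of the enzymes lay between -0.44 and 0.42, and those of all members between -1.69 (Pdk4) and 1.24 (Adm). Of the 9 HIF targets outside glycolysis, 8 had a higher level with Ifnb1eGFP sn than with rIFNβ (median log2 fold change 0.19, beside 0.01 over the 39 members), of which Bnip3 and P4ha1, together with Ndrg1 in the other direction, had an unadjusted p under 0.05. Without Ifnb1eGFP sn replicate 2, 2 members were called, Aldoa (-0.25, adjusted p = 0.0382) and Pgk1 (0.23, adjusted p = 0.0314). That replicate was the highest of its condition for 15 of 18 enzymes, and replicate 1 the lowest for 15 of 18 enzymes and the highest for 7 of 9 HIF targets.

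For eGFP sn against untreated no member was called by edgeR, where 0.299% of all genes were called. An unadjusted p under 0.05 was found for 6 of the 39 members, a larger share than the 8% of all genes. DESeq2 called 1 member, Pfkp, at 186 ± 0.733 CPM untreated and 165 ± 5.16 with eGFP sn (SD, n = 3; log2 fold change -0.17, adjusted p = 0.109 in edgeR and 0.00612 in DESeq2). The libraries did not overlap for 15 of the 39 members, a larger share than the 15.5% of all genes. The 95% intervals lay between -0.28 and 0.56 for the enzymes and between -2.15 and 1.86 (both Pdk4) for all members. For the interaction of IFNβ and supernatant, edgeR called no member (2 had an unadjusted p under 0.05, where 0% of all genes were called and 4.4% had such a p), and DESeq2 called none. The 2 were Pdk1 (0.20, 95% interval 0.05 to 0.35) and Ndrg1 (-0.25, 95% interval -0.45 to -0.06), both with an adjusted p of 0.926.

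Neighbouring pathways were described from further lists, beside the 24.6% lower and 30.7% higher of all genes with rIFNβ and the 25% lower and 30.1% higher with Ifnb1eGFP sn. Of 12 other glycolytic genes tested, 3 fell and 3 rose with rIFNβ, and 3 fell and 2 rose with Ifnb1eGFP sn, shares (25% and 25%, then 25% and 16.7%) that lie near or below those of all genes. The lysosomal sugar transporter Slc2a6 had log2 fold changes of -3.12 and -3.04, the urate transporter Slc2a9 had 0.86 and 0.80, and the muscle enolase Eno3 had 0.55 and 0.56. All 3 were called in both comparisons. Among 10 genes of pyruvate entry into mitochondria, 4 fell (40%) and 0 rose with rIFNβ, and 2 fell (20%) and 1 rose (10%) with Ifnb1eGFP sn. Mpc1, a subunit of the pyruvate carrier, had -1.20 and -1.05, and Pdhb, of pyruvate dehydrogenase, had -0.28 and -0.27. Dld, shared by several dehydrogenases, was called with Ifnb1eGFP sn only (0.10 and 0.16, adjusted p = 0.0959 and 0.0162).

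Of 7 pentose phosphate pathway genes, 3 fell (42.9%) and 2 rose (28.6%) in both comparisons, and the share that rose was near that of all genes. Those that rose were Rpia (0.39 and 0.22) and Rpe (0.13 and 0.22). Those that fell were Pgd (-1.06 and -1.05), Tkt (-0.99 and -1.10) and Taldo1 (-0.67 and -0.73). Of 11 HIF partners and regulators tested, 4 fell (36.4%) and 3 rose (27.3%) in each, and the share that rose was near that of all genes. Arnt, the stable partner of the HIF alpha subunits, had 0.38 and 0.31, Rbx1, of the ubiquitin ligase that degrades them, had 0.31 and 0.40, and Cited2, which competes with HIF for its coactivator, had 0.97 and 0.85. The 4 that fell, named after their values were seen, were Arnt2, a second such partner (-1.01 and -0.89), the prolyl hydroxylase Egln1 (-0.32 and -0.22), Vhl, which recruits the ligase (-0.15 and -0.16), and Hif1an, the asparagine hydroxylase of HIF alpha (-0.42 and -0.28).

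Of 21 other HIF targets tested, 12 fell (57.1%) and 5 rose (23.8%) with rIFNβ, and 12 fell (57.1%) and 6 rose (28.6%) with Ifnb1eGFP sn. The shares that rose were at or below those of all genes. Ak4, a mitochondrial adenylate kinase, had log2 fold changes of -3.99 and -3.44, the repressor Bhlhe40 had -3.13 and -2.94, and the mitophagy receptor Bnip3l had -0.86 and -0.81. The 5 that rose with rIFNβ, named after their values were seen, were Stc2 (1.73, from 2 to 33 counts a library), Rab20 (1.46), Plod1 (1.02), Hilpda (0.47) and Car9 (0.16).

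**Figure D5:**
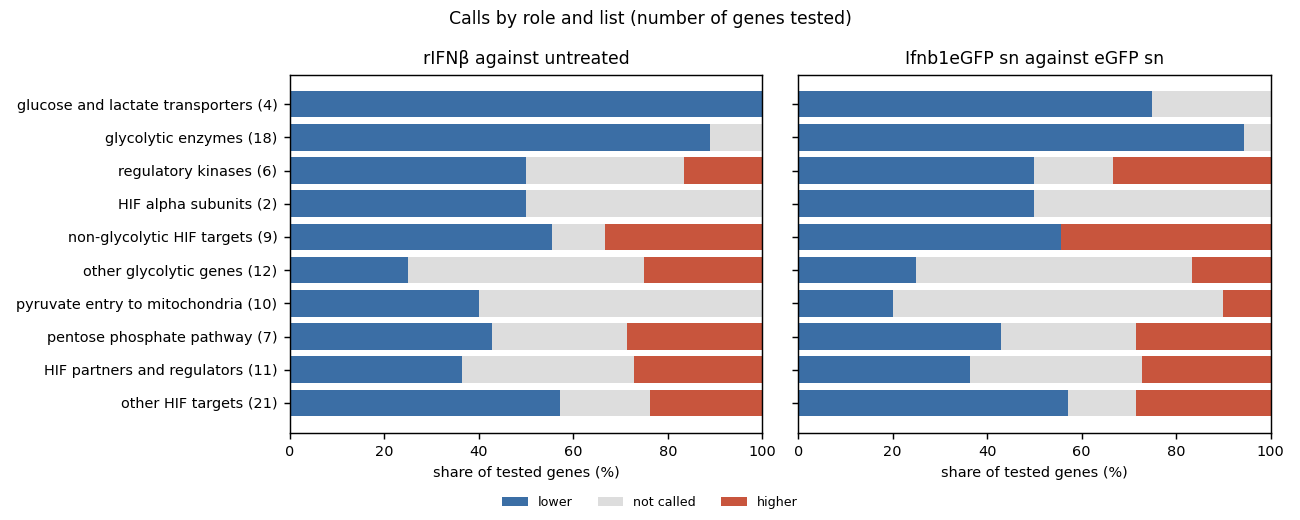
Share of tested genes (x axis, %) called lower, called higher or not called, by role of the members and by neighbouring list, for both IFNβ comparisons. The enzymes are 88.9% and 94.4% lower with none higher, and the 21 other HIF targets are 57.1% lower in both comparisons and 23.8% and 28.6% higher.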

How the data were processed

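Bulk RNA was measured in 12 libraries made with the TruSeq Stranded Total RNA kit from 600 ng of RNA. The authors deposited RSEM (v1.3.3) expected counts per Ensembl gene, neither normalized nor filtered. The submitters' processing notes name GRCm39 and mm10, 2 different builds; positions of genes here are those of GRCm39, and GENCODE M39 held 56017 of 56748 identifiers. RSEM divides reads shared by copies, so genes with near-identical copies (Gapdh, Eno1, Aldoa, Pgk1, Pgam1, Ldha, Ldhb) are less certain. 0 columns of values were left unused.

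Expected counts were rounded (12% of values were not whole). In R 4.3.3, edgeR 4.0.16 (filterByExpr, TMM, prior count 2) fitted 1 quasi-likelihood model over all 12 libraries, with Benjamini-Hochberg adjustment over 15033 genes. The authors' methods name DESeq2, run here (1.42.0) as an alternative. An SE is the log2 fold change divided by the square root of F. The script was tested on simulated data. CPM used library totals over the tested genes scaled by the TMM factors, and ratios of mean CPM can differ slightly from the fitted folds. CPM per kilobase used the canonical transcript. Other alternatives were RLE factors, library totals, no filter, a replicate block, the compared conditions alone, the study's thresholds, and leaving out each library. Where separate mice per library cannot be traced from the labels, p-values measure the spread between these libraries.

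Members and lists were chosen with earlier results of these data known. Values in every library are given for Hif1a, Epas1 and Gapdh, for up to 4 members of each role with the largest change among those called in both IFNβ comparisons, and for any called in the other comparisons. Up to 3 genes of each neighbouring list were named by smallest adjusted p for Ifnb1eGFP sn. The RefSeq promoter table held no entry for Slc2a3, Epas1 and Ndrg1.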

Additional observations from a re-analysis of the deposited data

How the results depend on the processing

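Of 646 values of the 18 members described by library, recomputed under the alternatives, 631 kept their direction and side of the threshold, 14 kept their direction but lost the call, all on leaving out 1 library and all for Slc2a3 or Epas1, and 1 changed sign (Hif1a with Ifnb1eGFP sn, -0.02 without Ifnb1eGFP sn replicate 1, uncalled in either fit, and -0.02 to 0.13 on leaving out any library). Apart from Hif1a, Epas1 and Gapdh, these 18 were chosen for large changes called in both IFNβ comparisons, so such stability was partly built in. Members outside the 18, such as Slc16a1, Hk1, Hk2, Pfkfb3 and Ero1a, changed calls under some alternatives. At the study's thresholds (absolute log2 fold change of at least 2, adjusted p of at most 0.01) 5 members were called with rIFNβ and 6 with Ifnb1eGFP sn. This rule is stricter by construction. DESeq2 called 1 member for eGFP sn against untreated. Leaving out each library gave 30 to 34 members with rIFNβ, 32 to 35 with Ifnb1eGFP sn, 0 to 2 for Ifnb1eGFP sn against rIFNβ, and 0 for the other comparisons. The shares of all genes called by DESeq2 or without a library are not given here, so these counts are not read as particular to the members. The enzyme median with rIFNβ was -1.03 with DESeq2 and with RLE factors and -1.03 to -0.96 on leaving out a library, and with Ifnb1eGFP sn it was -0.99 with RLE factors and -1.06 to -0.91. The HIF target median was -0.25 to -0.20 with rIFNβ and -0.26 to -0.12 with Ifnb1eGFP sn. The cause of these shifts was not tested.

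The labels number the replicates alike in each condition but do not say what a number stands for. Deviations from the condition means correlated between same-numbered libraries with a mean r of 0.148 (0.0582 to 0.252 over 18 pairs) across genes, and -0.0742 between others, and 12 of 12 libraries correlated best with their own number, a hint from the data only. With the replicate block 35 members were called with rIFNβ and 36 with Ifnb1eGFP sn. The share of all genes called with the block is not given here, so the gain is not read as particular to the members. The block added Hk2 (lower, adjusted p = 0.0127 and 0.00578) and Pfkfb3 with rIFNβ (higher, adjusted p = 0.000963) and removed no call. Depth limits Pdk4 and Adm most, with at most 3 and 12 counts in libraries without IFNβ.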
